A study of Macaca mulatta with 144 samples.

Results

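The miR-17/92 cluster and its paralogs are small groups of miRNA genes, each transcribed as one long primary RNA that is cut into several mature miRNAs. They are known for driving proliferation and survival of blood cell precursors, in part by repressing the pro-apoptotic BCL2L11 (BIM), and miR-92a is also carried in quantity by red blood cells and plasma. The mature miRNAs fall into families by their seed, the bases near the 5′ end that pair with target mRNAs, and members of one cluster can belong to different families. The 7 rows described here were chosen by name from the 908 miRNAs of the count table: mml-miR-92a-3p, mml-miR-92b-3p, mml-miR-25, mml-miR-363-3p, mml-miR-106b-3p, mml-miR-18a-3p and mml-miR-93-3p, written below without the species prefix mml. All 7 passed the filter of a count in at least 40% of libraries and belong to the 290 miRNAs that were tested.

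Serum of 36 rhesus macaques (nonhuman primates, NHPs) was taken before and at 1, 2 and 6 days after total body irradiation (TBI) with 60Co gamma rays, which gave 144 small RNA libraries. Each of 6 radiation doses (RDs), spaced by 0.5 Gy with 6.0 Gy the lowest and 8.5 Gy the highest, was given to 6 animals, and the pre-irradiation serum of the same animals was the control. No unirradiated animals are among the samples. By the labels 15 NHPs survived and 21 were deceased, and 17 were females and 19 males. Survivors numbered 4, 3, 2, 4, 1 and 1 and females 4, 3, 5, 1, 1 and 3 of 6 from the lowest to the highest RD, so RD, sex and survival were partly tied together.

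Total counts ran between 11174 and 4118401 per library (median 280300), and 7 libraries lay under 10% of the median. The red blood cell miRNA miR-486-5p alone made up 71.7% of a library (median). Levels are therefore given in CPM, the usual count unit per library size, after scaling by the trimmed mean of M values (TMM), which sets each library against the bulk of its miRNAs, so that such a CPM is not bounded by the library total. The deepest library, that of RA0724F (6.0 Gy, deceased) on day 6, had a TMM factor of 0.0907 and held 87.5% of the counts that this animal gave after irradiation. Fold changes, SEs and adjusted p-values are those of edgeR's quasi-likelihood F test with Benjamini-Hochberg adjustment over the 290 miRNAs. Serum holds RNA shed by many cell types, and fewer cells of a type and less RNA per cell cannot be told apart in it. Each NHP gave 1 library per time point, so within a time point or in counts summed per animal the spread is that between animals. In the tests of the change by RD or survival the libraries of an animal entered separately, and the spread is that between libraries.

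Of the 7 miRNAs, 4 share 1 seed. Their mature sequences, as the study aligned them for NHP and human and the same in both, are shown because the results below set members of this 1 family side by side. Capitals mark the seed, bases 2 to 8 from the 5′ end.
miR-92a-3p: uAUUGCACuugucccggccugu
miR-92b-3p: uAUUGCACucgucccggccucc
miR-25-3p: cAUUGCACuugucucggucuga
miR-363-3p: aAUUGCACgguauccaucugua
The 22 bases of miR-92a-3p differed from those of miR-92b-3p at 3 positions and from those of miR-25-3p at 4 positions, whereas miR-363-3p differed from miR-92a-3p at 12. The table lists miR-25 without an arm, and it was read as miR-25-3p. In the RefSeq gene list of the macaque assembly T2T-MMU8v2.0, MIR25, MIR93 and MIR106B lie next to each other inside MCM7, the gene of a replicative helicase subunit. MIR17, MIR18A, MIR19A and MIR20A are neighbours at another place, MIR363 and MIR92A-2 lie with 4 other members elsewhere, and MIR92B lies alone. miR-92a-3p is also made from a second hairpin of the miR-17/92 cluster, so its counts cannot be assigned to one locus.

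The levels of the 7 miRNAs on the log2(CPM + 1) scale covered a wide range. miR-92a-3p was the highest, with a mean of 15.74 ± 1.28 (SD, n = 144 libraries) and a median of 5.86% of all counts, and it exceeded miR-25 in 144 of 144 libraries. miR-25 followed at 11.70 ± 0.65 and miR-92b-3p at 9.78 ± 1.37, with miR-25 the higher in 129 of 144 libraries. miR-106b-3p averaged 7.36 ± 1.34 and miR-363-3p 6.31 ± 1.40, neighbours whose difference of 1.05 ± 1.72 was smaller than its own spread between libraries. The same held for the lowest pair, miR-18a-3p at 3.45 ± 2.09 and miR-93-3p at 2.34 ± 1.76, which differed by 1.11 ± 2.66. The rarest 3 were close to the limit of counting: miR-18a-3p had a median of 4 counts per library and was at 0 in 24 libraries, miR-93-3p had a median of 2 counts and was at 0 in 43, and miR-363-3p had a median of 25 counts and was at 0 in 3. miR-106b-3p was at 0 in 1 library and the other members in none.

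Within the shared-seed family miR-92a-3p supplied most of the counts, with a median of 90.7% against 7.56% for miR-25, 1.46% for miR-92b-3p and 0.142% for miR-363-3p. Among the libraries the share of miR-25 in the family ran between 0.451% and 24.5%. The family as a whole took a median of 6.52% of all counts (1.95% to 12.4%). Adapter ligation favours some miRNAs over others, and that bias was not measured here.

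**Figure D1:**
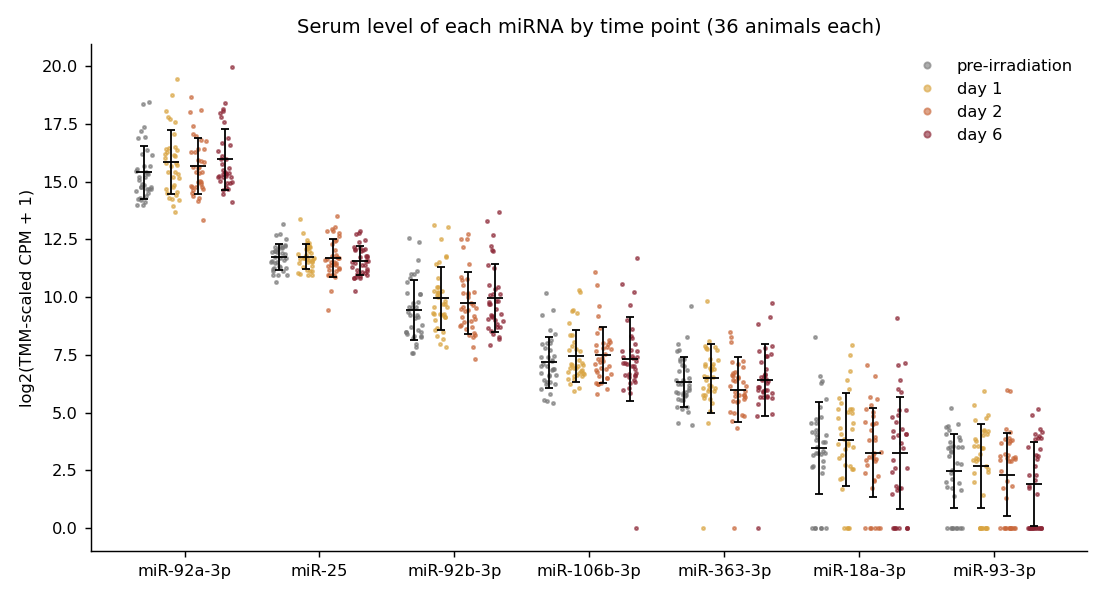
Level of each miRNA as log2(TMM-scaled CPM + 1) in the 36 libraries of each time point (points), with the mean and SD in black. miR-92a-3p lies highest and miR-25 has the narrowest spread, while the points of the 4 time points overlap for each miRNA.

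The other rows of these loci put the 7 in context. The table lists 18 more mature miRNAs of the 4 loci, of which 9 passed the filter. The most abundant were miR-93-5p (70991 counts in all libraries), miR-19b (40337), miR-106b-5p (14272) and miR-19a-3p (9804), and miR-92a-5p, miR-106a-3p, miR-20b-3p and miR-363-5p are listed at 0 in every library. The 5p arms of miR-17, miR-20a, miR-93 and miR-106b carry the seed for which the miR-17 family is named, while the 3p arms described here do not.

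Arm use differed between hairpins. Of the counts of miR-93 only 1.06% came from the 3p arm, which was the lower arm in 142 of 144 libraries and equal in 2. For miR-106b the arms were even, with 50.3% from the 3p arm, which was the higher in 79 libraries, the lower in 61 and equal in 4. For miR-18a 71.3% came from the 3p arm, here higher in 89 libraries and lower in 27, on a total of 1535 counts against 618.

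The 7 did not all vary together between animals. Over the 36 pre-irradiation libraries the log2 levels of miR-92a-3p and miR-92b-3p correlated with a Spearman rho of 0.83, and those of miR-92a-3p and miR-106b-3p with 0.77. miR-18a-3p and miR-363-3p followed miR-92a-3p less closely, at 0.56 and 0.48. miR-25, which shares the seed of miR-92a-3p and the locus of miR-106b-3p, stood apart, with a rho of 0.17 with miR-92a-3p, -0.037 with miR-92b-3p and 0.12 with miR-106b-3p. miR-93-3p gave -0.20 with its neighbour miR-106b-3p. Over the means of days 1, 2 and 6 of the same 36 animals these values were 0.82, 0.71, 0.55, 0.36, 0.18, -0.045, -0.016 and 0.012 in the same order. These are descriptions: all points share the TMM scaling of their library, and miR-18a-3p and miR-93-3p rest on few counts.

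Among the 289 other tested miRNAs, those whose pre-irradiation pattern was most like that of miR-92a-3p were miR-92b-3p, miR-486-5p (rho 0.82) and miR-182 (0.81). Nearest to miR-92b-3p was miR-197-3p (0.89), ahead of miR-92a-3p and miR-486-5p (0.83 each). miR-486-5p was also the nearest to miR-363-3p (0.62). Nearest to miR-25 were miR-19b, a member of the miR-17/92 cluster (0.69), miR-16-2-3p (0.67) and miR-15a-5p (0.66). Over the later means of the same animals the rho with miR-486-5p was 0.80 for miR-92a-3p, 0.80 for miR-92b-3p and 0.26 for miR-363-3p. That of miR-92b-3p with miR-197-3p was 0.48 and that of miR-25 with miR-19b was 0.37. Nearest to miR-106b-3p after miR-92a-3p were let-7b-5p (0.73) and miR-182 (0.69), to miR-18a-3p miR-652 (0.68) and miR-636 (0.65), and to miR-93-3p miR-628-3p (0.61), whose rho was 0.0053 over the later means. The log2 ratio of miR-92a-3p to miR-486-5p, which no scaling can change, stayed between means of -3.33 and -4.07 in the RD groups before and after irradiation.

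The comparison of each day with pre-irradiation asked whether TBI moved these miRNAs in serum. None of the 7 passed the test on day 1, where 6.55% of the 290 miRNAs did, on day 2 (0.69%) or on day 6 (6.55%). With the animal as a block none of the 7 passed either, and over the 290 the calls were 15, 2 and 4 on the 3 days, against 19, 2 and 19 without it. At an unadjusted p under 0.05 the count was 0, 0 and 3 of 7, where 13.4%, 11% and 19.7% of the 290 were under it. DESeq2 called 0 of the 6 members for which it gave an adjusted p on each of the 3 days, and 11, 2 and 22 of the 290 miRNAs. The 7 had median log2 fold changes of 0.34, 0.077 and 0.72 on the 3 days, against 0.024, -0.074 and -0.038 over all 290.

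miR-92a-3p, the main carrier of the family seed, lay at 16440, 35820 and 357600 CPM (lowest, median, highest of 36) before irradiation, at 13080, 55980 and 710000 on day 1, at 10270, 47320 and 418900 on day 2 and at 18130, 43630 and 1031000 on day 6. The groups overlapped over nearly their whole range, although 26 of 36 NHPs were above their own pre-irradiation level on day 6. The log2 fold change was 0.62 ± 0.33 (SE) on day 1 (adjusted p = 0.39, edgeR), 0.27 ± 0.33 on day 2 (0.73) and 0.79 ± 0.33 on day 6 (0.14). Without the deepest library the day 6 value was 0.40 ± 0.31, and with library totals as the only scaling it was 0.072. As a share of all counts its median was 5.80% before irradiation and 6.03%, 5.91% and 5.79% on days 1, 2 and 6.

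miR-92b-3p, made from a gene of its own, followed the same course. Its lowest, median and highest values were 189, 590 and 6052 CPM before irradiation, 232, 831 and 8959 on day 1, 159, 726 and 6810 on day 2 and 241, 834 and 13180 on day 6. The day 6 difference was 0.77 ± 0.34 (adjusted p = 0.18, edgeR), with 24 of 36 NHPs higher, and 0.47 ± 0.34 without the deepest library. miR-25, which has the same seed, had the narrowest spread of the 7. It lay at 1602, 3369 and 9214 CPM before irradiation, at 1982, 3306 and 10590 on day 1, at 703, 3027 and 11610 on day 2 and at 1215, 3006 and 7540 on day 6. Its day 6 difference was -0.13 ± 0.16 (adjusted p = 0.73), with 14 of 36 NHPs higher.

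miR-106b-3p, the 3p partner of the miR-17-like miR-106b-5p, had medians of 127 CPM before irradiation and 130, 154 and 142 CPM on the 3 later days, with a range of 0 to 3327 on day 6 against 41.6 to 1172 before irradiation. Its day 6 difference was 0.72 ± 0.32 (adjusted p = 0.18, edgeR), and 0.18 ± 0.30 without the deepest library. miR-363-3p had medians of 69.6, 93.6, 64.7 and 79.4 CPM and a day 6 difference of 0.37 ± 0.27 (adjusted p = 0.49). The 2 rarest were wide in every group. miR-18a-3p had medians of 11.3, 12.6, 8.28 and 11.0 CPM and a day 6 difference of 0.85 ± 0.43 (adjusted p = 0.25), which was -0.040 ± 0.43 without the deepest library. miR-93-3p had medians of 5.83, 7.04, 6.55 and 2.86 CPM and a day 6 difference of -0.098 ± 0.34 (adjusted p = 0.94), and it was at 0 in 15 of 36 libraries on day 6 against 8 of 36 before irradiation. Libraries were also shallower on day 6, with a median total of 204700 against 363800 before irradiation. None of the 9 other tested rows of the loci passed on any day, and 8 of these 9 had a negative value on day 6 (median -0.23).

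**Figure D2:**
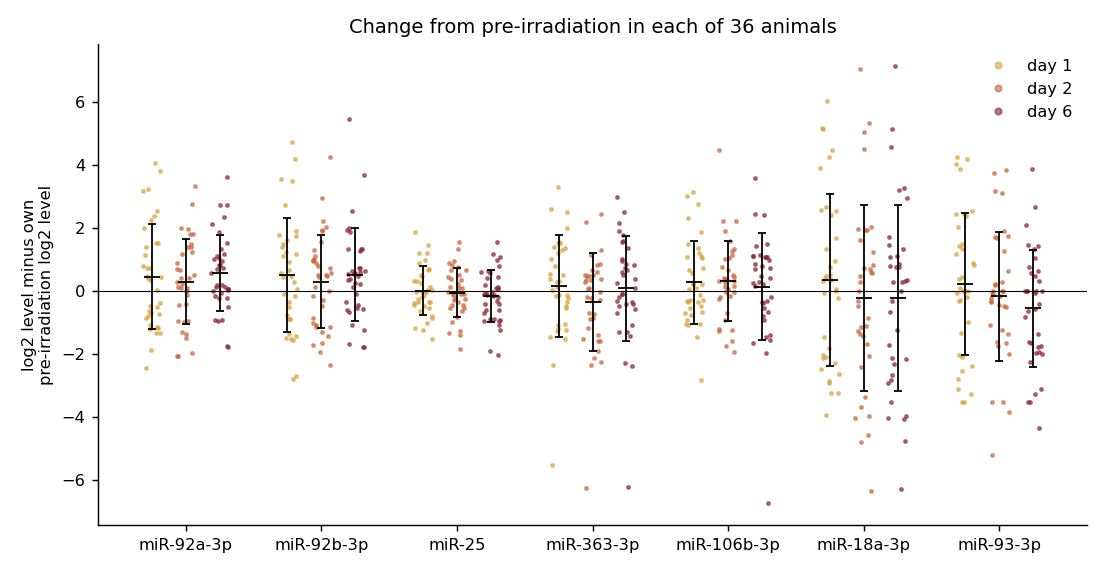
Change of each miRNA in each of 36 NHPs, as the log2 level on days 1, 2 and 6 minus the animal's own pre-irradiation log2 level (points), with the mean and SD in black. Every SD bar crosses 0, and miR-25 has the narrowest bars, with SDs of 0.78, 0.77 and 0.82 on days 1, 2 and 6.

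Whether the change from pre-irradiation followed RD was tested by the interaction of RD with later against pre-irradiation libraries. The 144 libraries entered singly, without the animal in the model, and with the animal as a block none of the 7 passed either. None of the 7 passed (0% of the 290 did), and none had an unadjusted p under 0.05, where 8 of 290 miRNAs (2.76%) did. With DESeq2 the count of members was also 0. The slopes of the change ran between -0.24 ± 0.30 per Gy for miR-93-3p and 0.44 ± 0.30 per Gy for miR-92b-3p.

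The level after irradiation, by contrast, was related to RD in the summed counts of days 1, 2 and 6. In that fit 4 of the 7 fell with RD and none rose, where 9.66% of the 290 miRNAs fell and 11% passed in either direction. The slope was -0.90 ± 0.19 per Gy for miR-92a-3p (adjusted p = 0.0007, edgeR), -0.87 ± 0.20 for miR-92b-3p (0.0017), -0.83 ± 0.17 for miR-106b-3p (0.0007) and -1.10 ± 0.25 for miR-18a-3p (0.0016). miR-363-3p gave -0.48 ± 0.17 (adjusted p = 0.068), miR-93-3p -0.11 ± 0.18 (0.79) and miR-25 -0.036 ± 0.096 (0.89). The median slope of the 7 was -0.83, against 0.023 over all 290. None of the 9 other tested rows of the loci passed, and their median slope was 0.032.

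Whether these slopes passed depended on the scaling and on 1 animal. Without RA0724F none of the 7 passed, and 7 of 293 miRNAs did, against 32 of 290 with it. The slopes were then -0.49 ± 0.15 for miR-92a-3p (adjusted p = 0.075, edgeR), -0.53 ± 0.18 for miR-92b-3p (0.086), -0.34 ± 0.12 for miR-106b-3p (0.086) and -0.56 ± 0.22 for miR-18a-3p (0.18). Without the day 6 library of RA0724F alone 3 passed, where 21 of 290 miRNAs did, and miR-18a-3p did not (-0.58, adjusted p = 0.099, edgeR). With library totals as the only scaling none passed, and no other of the 290 miRNAs did. The slopes were -0.062, -0.031, -0.025 and -0.15 in the same order, while miR-25, miR-363-3p and miR-93-3p had positive slopes of 0.30, 0.16 and 0.28. That scaling also moved the median slope of all 290 miRNAs to 0.27, with the slope of miR-92a-3p below this median and that of miR-25 close to it. With totals that leave out miR-486-5p none passed either, at -0.33, -0.31, -0.27 and -0.48. When each library counted equally, as the mean of the 3 later log2 levels of an animal in limma, none passed and no other of the 290 miRNAs did, with slopes of -0.29, -0.18, -0.42 and -0.47.

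**Figure D3:**
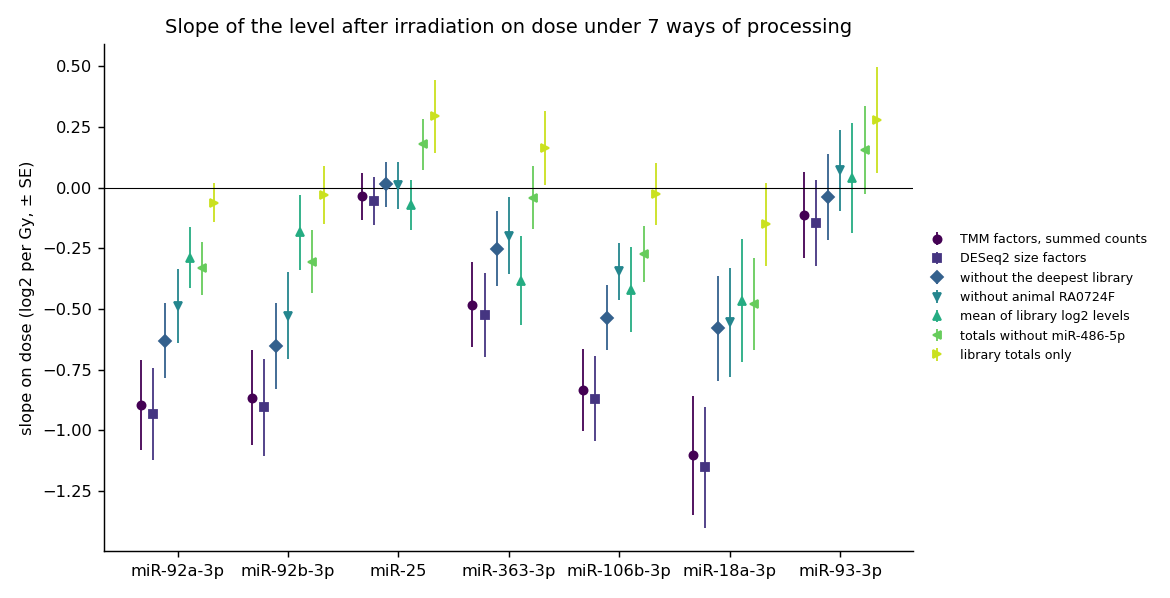
Slope of the level after irradiation on RD in log2 units per Gy (y axis, ± SE) for each miRNA, under 7 ways of scaling, summing or leaving out data. miR-92a-3p, miR-92b-3p, miR-106b-3p and miR-18a-3p have the steepest slopes with TMM or DESeq2 size factors and slopes of -0.15 or nearer to 0 with library totals only.

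Animal by animal the later log2 levels of miR-92a-3p, miR-92b-3p, miR-363-3p and miR-106b-3p were spread most widely at 6.0 Gy. Those of miR-25, miR-18a-3p and miR-93-3p were not. After irradiation miR-92a-3p ran at 42160, 109100 and 549000 CPM (lowest, median, highest of the 6 animals, each a mean of 3 days) at 6.0 Gy and at 49110, 75970 and 264300 at 6.5 Gy. At the 4 RDs above these the medians were 58640, 68340, 58790 and 89210 CPM. The mean log2 level was 16.47 ± 1.44 at 6.0 Gy and lay between 15.63 and 15.99 at the 5 higher RDs, with SDs of 0.32 to 0.57 between the animals of a group. In shares of all counts the medians of miR-92a-3p were 6.66%, 5.59%, 5.69%, 5.05%, 6.64% and 6.12% from 6.0 to 8.5 Gy. Without the 6.0 Gy animals 1 of the 7 passed, where 18 of 284 miRNAs did. This was miR-92b-3p at -0.70 ± 0.21 per Gy (adjusted p = 0.034, edgeR), while miR-92a-3p had -0.58 ± 0.19 and missed the threshold (0.056).

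miR-106b-3p lay at 91.5, 394.5 and 1826 CPM at 6.0 Gy and at 77.3, 141 and 811 CPM at 8.5 Gy. Its log2 levels were wide in both groups, with SDs of 1.457 and 1.345, and had SDs of 0.31 to 0.42 at the RDs between. Without the 6.0 Gy animals its slope was -0.26 ± 0.14 (adjusted p = 0.28, edgeR). miR-18a-3p lay at 6.71, 36.0 and 223 CPM at 6.0 Gy and at 4.58, 9.68 and 34.3 CPM at 8.5 Gy, with the 2 ranges overlapping. miR-25 lay at 2515, 4126 and 5201 CPM at 6.0 Gy and at 2305, 2944 and 5372 CPM at 8.5 Gy. Its 6 group means of the log2 level stayed between 11.52 and 11.78, a range below the SD within groups (0.32 to 0.39).

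Differences between the RD groups were also measured before any radiation was given. The pre-irradiation level of miR-92a-3p fell with the RD the animal was to receive, by 0.85 ± 0.22 per Gy on the log2 scale (adjusted p = 0.042, edgeR), as 1 of 7 members where 0.69% of the 290 miRNAs passed. At an unadjusted p under 0.05 the count was 5 of 7, where 8.28% of the 290 were under it. Beside miR-92a-3p, miR-92b-3p had a slope of -0.72 ± 0.23, miR-106b-3p -0.67 ± 0.22, miR-363-3p -0.51 ± 0.21 and miR-18a-3p -0.86 ± 0.34, with adjusted p between 0.13 and 0.34. miR-25 (0.015 ± 0.11) and miR-93-3p (0.23 ± 0.25) had slopes near 0 or within their error. Before irradiation miR-92a-3p was at 16440, 79340 and 357600 CPM in the animals assigned to 6.0 Gy and at 21220, 29620 and 47680 CPM in those assigned to 8.5 Gy, and RA0724F was the highest of the 36. The mean log2 levels were 16.20, 15.54, 15.20, 15.70, 14.89 and 14.90 from 6.0 to 8.5 Gy, and the RD groups above 6.0 Gy did not rank as they did after irradiation. The call for miR-92a-3p did not hold without the 6.0 Gy animals (-0.50 ± 0.25, adjusted p = 0.57), with sex as a covariate (-0.85 ± 0.23, adjusted p = 0.11), with library totals only (-0.11), or without the libraries of low total, 1 of which was a pre-irradiation one (-0.85 ± 0.22, adjusted p = 0.057). It was also lost on leaving out any 1 of 17 of the 36 animals, in fits whose slopes ran between -0.86 and -0.58 (adjusted p between 0.053 and 0.68). The interaction of RD with time, given above, is the comparison that takes the starting level into account.

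**Figure D4:**
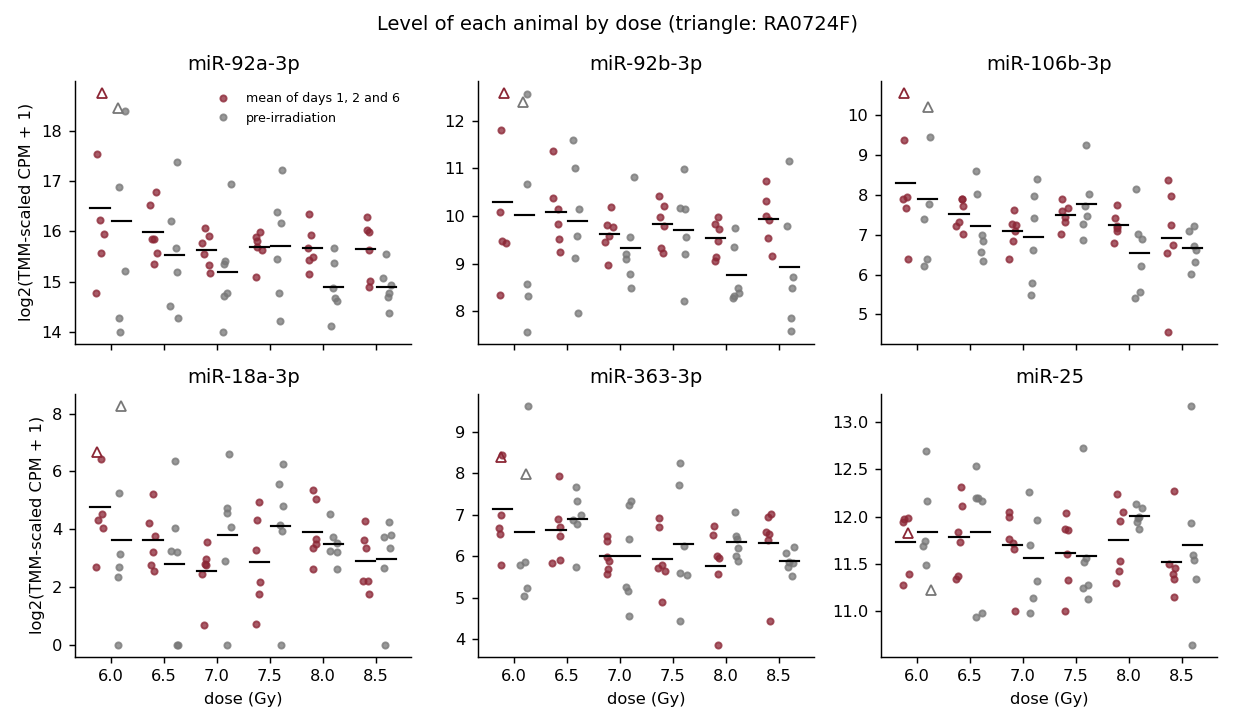
Level of 6 of the miRNAs in each NHP as log2(TMM-scaled CPM + 1), by RD in Gy, as the mean of days 1, 2 and 6 (red, left) and before irradiation (grey, right), with group means as black lines and RA0724F as a triangle. The wide 6.0 Gy groups hold the highest animals for miR-92a-3p, miR-92b-3p and miR-106b-3p both before and after irradiation, and the means of miR-25 stay level.

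Red blood cell miRNAs and depth stand beside these slopes as measured. In the same fit miR-486-5p had a slope of -0.80 ± 0.19 per Gy after irradiation (adjusted p = 0.0028, edgeR) and -0.66 ± 0.23 before it (0.23). The other red blood cell markers did not pass after irradiation, with slopes of -0.12 for miR-451, 0.27 for miR-144 and -0.11 for miR-16-5p. Neither the lymphocyte markers miR-150-5p and miR-342-3p nor miR-223 (myeloid) and miR-142-3p (blood cells) passed for the later slope. Against pre-irradiation miR-150-5p fell on day 2 (-1.23 ± 0.32, adjusted p = 0.026, edgeR), and on day 6 miR-342-3p (-0.92 ± 0.31, adjusted p = 0.047, edgeR) and miR-142-3p (-0.91 ± 0.28, adjusted p = 0.031) fell. These markers passed on no other day. On day 6 miR-150-5p was at -0.66 ± 0.32 (adjusted p = 0.23, edgeR) and miR-223 at -0.032 ± 0.23 (0.94), and on day 1 miR-342-3p was at 0.76 ± 0.29 (0.11). The median TMM factor was 0.609, 0.807, 0.901, 1.03, 1.43 and 1.15 from 6.0 to 8.5 Gy after irradiation, and 1.22, 0.748, 1.78, 0.884, 1.62 and 1.47 before it. Haemolysis after irradiation, scored as log2 miR-451 minus log2 miR-23a-3p, averaged 4.12, 4.37, 4.51, 4.07, 4.56 and 3.48 from 6.0 to 8.5 Gy, with SDs of 0.918 to 2.58 over the 18 libraries of an RD. It did not run in the order of RD, and the 8.5 Gy mean includes 1 library with a negative score that held 19254 counts. Their part in the slopes was not tested.

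Ratios within a library do not depend on its scaling. After irradiation, as a mean of 3 days, the log2 ratio of miR-92a-3p to miR-25 had a slope of -0.22 ± 0.15 per Gy over the 36 NHPs, and before it -0.45 ± 0.24. For miR-106b-3p to miR-25 the slope was -0.23 ± 0.17 after and -0.40 ± 0.23 before irradiation, and for miR-92b-3p to miR-25 it was -0.12 ± 0.18 after and -0.47 ± 0.28 before. The log2 ratio of miR-92a-3p to miR-486-5p, by contrast, had slopes of 0.037 ± 0.079 after and -0.081 ± 0.13 before irradiation, each smaller than its SE. The 2 members from the same MCM7 locus, miR-106b-3p and miR-93-3p, had a log2 ratio of 4.51 ± 0.59 at 6.0 Gy and 3.06 ± 0.53 at 8.5 Gy after irradiation, with a slope of -0.43 ± 0.14. These pairs were chosen after their values were seen and are given without a test, and for miR-93-3p the ratio rests on log2(count + 1) of few counts.

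Survivors were compared with deceased NHPs to ask whether these miRNAs marked the outcome. None of the 7 passed for the level over all 4 time points, for the pre-irradiation level or for the change, and neither did any of the 290 (0% in each). At an unadjusted p under 0.05 the count was 0, 1 and 0 of 7, where 4.48%, 6.21% and 4.14% of the 290 miRNAs did, and DESeq2 called 0 of the 3, 6 and 6 members for which it gave an adjusted p. The fold changes of the level were negative for all 7, that is lower in survivors, with a median of -0.53 against -0.076 over all 290, but without RA0724F those of miR-363-3p, miR-106b-3p and miR-18a-3p were positive.

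miR-92a-3p after irradiation lay at 42160, 71680 and 200300 CPM in 15 survivors and at 34140, 64020 and 549000 CPM in 21 deceased NHPs. Its level over all time points, pre-irradiation included, differed by -0.82 ± 0.42 (adjusted p = 0.85, edgeR). That difference was -0.013 without RA0724F, a deceased animal, and -1.41 ± 0.47 without RA2445M, also at 6.0 Gy (adjusted p = 0.17). With library totals as the only scaling the difference was 0.013. miR-25 after irradiation lay at 2048, 2915 and 5201 CPM in survivors and at 2305, 4007 and 5965 CPM in deceased NHPs. Its level over all time points differed by -0.17 ± 0.15 (adjusted p = 0.85, edgeR), and this difference changed sign with library totals as the only scaling. Within RD groups the mean later log2 level of miR-25 was lower in survivors at 5 of 6 RDs and that of miR-92a-3p at 3 of 6. These means rest on 1 survivor at 8.0 Gy and 1 at 8.5 Gy.

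miR-18a-3p was the member with an unadjusted p under 0.05 before irradiation. Its lowest, median and highest values were 0, 5.44 and 76.2 CPM in survivors, with 5 of 15 at 0, and 0, 12.9 and 306.5 CPM in deceased NHPs, with 1 of 21 at 0. The 6 libraries at 0 held 43377 to 164590 counts, against a median of 363800 over the pre-irradiation libraries. The part of depth was not tested. Survivors differed from deceased NHPs by -1.78 ± 0.61 (adjusted p = 0.56, edgeR), and the change to the later days differed by 1.43 ± 0.76 (adjusted p = 0.99). The 2 groups overlapped over most of their range, and leaving out single animals gave -1.99 to -1.28. With library totals as the only scaling the pre-irradiation difference was -0.81 ± 0.46 (adjusted p = 0.96) and that of the change 0.91 ± 0.54 (0.99).

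Females and males were compared last. None of the 7 passed for the level over all time points, where 0.345% of the 290 miRNAs (1 miRNA) did, although 4 of 7 had an unadjusted p under 0.05, where 19.3% of the 290 did. miR-92a-3p was higher in females by 0.99 ± 0.40, miR-92b-3p by 1.01 ± 0.40, miR-106b-3p by 0.95 ± 0.38 and miR-18a-3p by 1.14 ± 0.51, each with an adjusted p of 0.22 (edgeR). DESeq2 gave an adjusted p for 2 of the 7, miR-25 and miR-93-3p, and called neither. The medians after irradiation were 71680 CPM in 17 females and 65620 CPM in 19 males for miR-92a-3p, and 164 and 182 CPM for miR-106b-3p. Without RA0724F, a female, the 4 values were 0.092, 0.28, 0.022 and -0.065. Without RA2445M, a male at 6.0 Gy, all 4 passed at an adjusted p of 0.024 (edgeR), where 20 of 292 miRNAs did. With RD as a covariate they were 0.37, 0.46, 0.41 and 0.25, and with library totals as the only scaling 0.11, 0.24, 0.22 and 0.21 (adjusted p = 0.96 for each).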

How the data were processed

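The study collected serum from 36 NHPs at 1 time point before TBI (titled Preradiation) and at 3 after it. Per the methods, a TruSeq small RNA kit and a NextSeq instrument were used, reads were demultiplexed with bcl2fastq, and mature macaque miRNAs of miRBase were counted. The deposited table holds raw counts per miRNA made by the authors, with no normalization. Groups came from the sample labels. For 1 sample taken before TBI the description named another animal than the title, and the title was used.

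Fits were made in R 4.3.3 with edgeR 4.0.16 (quasi-likelihood F test, TMM factors, Benjamini-Hochberg adjustment over 290 miRNAs, threshold 0.05), and with DESeq2 1.42.0 as an alternative. Days entered a model of time alone. RD after irradiation, survival and sex were tested on counts summed per animal, and levels are log2(TMM CPM + 1). The study sampled the same animals over time with pre-irradiation as baseline. The factors of its stated model (RD, time, sex and outcome) do not include the animal, which was therefore a block only as an alternative. Animal names in the labels give the pairs, and the mean residual correlation was 0.0827 between libraries of 1 animal and 0.00482 between animals. At a median total of 280300, miR-93-3p had a median of 2 counts and little precision. Simulated data with 200 changed miRNAs served to test the fits. The simulated libraries were drawn independently from 1 mean profile, without differences between animals. They therefore cannot speak to the dependence of the results on the scaling or on 1 animal. Named were the 7 members, all other rows of the 4 loci and the 3 nearest patterns of each member. Members and lists were chosen with earlier results of these data known. Of the marker list, miR-126-3p, miR-122a and miR-122-5p were not matched. The libraries RA2265F (pre-irradiation) and RA2694M (day 1) held identical counts, which stayed under their labels in the main fits. Alternatives were other size factors, no filter, covariates for haemolysis or RD, a pseudocount of 10, and fits without low libraries, without the identical pair and without each animal. Chosen after seeing the data were fits without the deepest library or the 6.0 Gy animals, sex or RD as further covariates, equal weight of libraries (limma 3.58.1) and totals without miR-486-5p.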

Additional observations from a re-analysis of the deposited data

Results flagged for a closer look

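In 4 of 42 groups of 6 animals the highest or lowest mean change from pre-irradiation stood apart from the other 5 by Dixon's criterion, where chance flags about 1 in 20 groups. The change of miR-363-3p at 8.5 Gy was -1.09 on the log2 scale in RA2742F, against 0.45 in the next lowest animal. The change of miR-106b-3p at 6.0 Gy was 1.50 in RA2740F, against 0.35 in the next highest. The change of miR-18a-3p was 2.99 in RA2284F at 7.0 Gy, against -1.27 in the next highest, and 4.93 in RA2700M at 7.5 Gy, against -1.26. RA2284F and RA2700M had 0 counts of miR-18a-3p before irradiation, so these 2 values are the later levels over a 0 and depend on the pseudocount. The value of RA2742F also rests on a 0, that of miR-363-3p on day 1 in a library of 80610 counts. Its log2 levels on days 2 and 6 were 5.89 and 7.44, above the 5.53 before irradiation. No difference between survivors and deceased NHPs or between RDs in the change of a member passed the test of that difference.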

How the results depend on the processing

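The 719 values recomputed under alternatives other than leaving out 1 animal were slopes, differences and counts of members. Of these 641 were scored as unchanged, 30 as weaker and 7 as stronger, and 41 changed sign, 19 of them with library totals as the only scaling. A slope or difference was unchanged if it kept its sign and its side of the threshold, and most had not passed in the main fits. Small shifts in a count were also scored as unchanged, and a missing adjusted p from DESeq2 was scored as not passing. The cause was not tested. Limits of the data are the scaling, with miR-486-5p at a median of 71.7% of a library, 1 deep library at 6.0 Gy, and few counts of miR-18a-3p and miR-93-3p.

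The count of members passing for the pre-irradiation slope on RD was 2 with DESeq2 size factors (5 of 290 miRNAs) and with the DESeq2 Wald test (6 of 290). It was 0 with library totals only, without libraries of low total, with sex as covariate, without the 6.0 Gy animals and with totals without miR-486-5p, where no miRNA passed. The count for the slope after irradiation was 0 with library totals only (0 of 290 miRNAs), with totals without miR-486-5p (8 of 290) and with equal weight of libraries (0 of 290). It was 1 without the 6.0 Gy animals (18 of 284). It was 5 with DESeq2 size factors (33 of 290), the DESeq2 Wald test (31 of 290) or no filter (54 of 606). With the animal as replicate block none of the 7 members gained or lost a call on a day or in a change, while the calls over all 290 miRNAs were 15 on day 1 and 4 on day 6, against 19 on each day without the block. The values of members that changed sign with the block were the slopes of the change on RD of miR-363-3p (-0.012) and miR-18a-3p (-0.18) and the change of miR-92a-3p by survival (0.22).

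With library totals only the sign changed on day 1 for miR-25 (-0.12) and miR-18a-3p (-0.21), on day 2 for miR-25 (-0.061), on day 6 for miR-363-3p (-0.28), miR-106b-3p (-0.17) and miR-18a-3p (-0.16), in the pre-irradiation slope for miR-363-3p (0.061), in the later slope for miR-25 (0.30), miR-363-3p (0.16) and miR-93-3p (0.28), in the level by survival for miR-92a-3p (0.013), miR-25 (0.17), miR-363-3p (0.10), miR-106b-3p (0.34) and miR-93-3p (0.081), in the pre-irradiation level by survival for miR-25 (0.068) and miR-106b-3p (0.47), in the change by survival for miR-92a-3p (0.12) and by sex for miR-363-3p (-0.30). miR-25 on day 1 was -0.057 with DESeq2 size factors and with the DESeq2 Wald test, -0.079 with no filter, -0.031 with the haemolysis covariate and -0.027 without the 2 identical libraries. Its change by survival was 0.00998 with DESeq2 size factors and 0.0105 with the DESeq2 Wald test, and its pre-irradiation slope was -0.00016 without the 2 identical libraries and -0.025 with sex as covariate. miR-18a-3p was 0.10 on day 2 with the haemolysis covariate and -0.040 on day 6 without the deepest library, where the later slope of miR-25 was 0.013 and the value of miR-363-3p by sex -0.25. miR-363-3p by sex was -0.19 with RD as covariate, and by survival 0.16 with equal weight of libraries. The later slope of miR-93-3p was 0.041 with equal weight, 0.057 without the 6.0 Gy animals and 0.16 with totals without miR-486-5p, where that of miR-25 was 0.18.

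Leaving out each animal in turn gave 0 to 5 members for the later slope, 0 to 2 for the pre-irradiation slope, 0 to 4 by sex and 0 throughout for the other 7 comparisons. The later slope had 0 without RA0724F, where 7 of 293 miRNAs passed, and 5 in fits where 33 to 37 miRNAs did. By sex 4 passed without RA2445M, where 20 of 292 miRNAs did. The pre-irradiation count was 2 without RA2318M (3 of 290 miRNAs) or RA2740F (6 of 288). It was 0, with no miRNA passing, without any of RA0521F, RA0724F, RA2116F, RA2267F, RA2445M, RA2475M, RA2596M, RA2598M, RA2685M, RA2689M, RA2694M, RA2700M, RA2709M, RA2733F, RA2743F, RA2745F and RA2816M. Ranges that crossed 0 were on day 1 miR-25 (-0.18 to 0.032) and miR-18a-3p (-0.30 to 0.35), on day 2 miR-18a-3p (-0.46 to 0.20) and miR-93-3p (-0.19 to 0.021), in the slope of the change miR-363-3p (-0.12 to 0.14), miR-106b-3p (-0.061 to 0.068) and miR-18a-3p (-0.22 to 0.19), in the pre-irradiation slope miR-25 (-0.091 to 0.075), and in the later slope miR-25 (-0.11 to 0.0099) and miR-93-3p (-0.17 to 0.072). By survival they were, for the level, miR-363-3p (-0.84 to 0.020), miR-106b-3p (-1.06 to 0.37) and miR-18a-3p (-1.69 to 0.17), before irradiation miR-92a-3p (-0.92 to 0.089), miR-92b-3p (-0.81 to 0.13), miR-363-3p (-0.16 to 0.38) and miR-106b-3p (-0.39 to 0.33), and for the change miR-92a-3p (-0.31 to 0.22), miR-92b-3p (-0.46 to 0.036), miR-25 (-0.12 to 0.13), miR-106b-3p (-0.42 to 0.0055) and miR-93-3p (-0.28 to 0.052). By sex they were miR-363-3p (-0.41 to 0.53) and miR-18a-3p (-0.065 to 1.86).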
